A study of Sus scrofa with 12 samples.

Results

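The endometrium of sows was examined for the genes that build, cross-link and degrade the extracellular matrix: the collagens, laminins, lysyl oxidases and SPARC proteins, the matrix metalloproteinases (MMPs), their tissue inhibitors (TIMPs), and the ADAM and ADAMTS proteases. Members were picked by a rule on gene symbols, set with earlier results of these data known. A probe set entered if the array's annotation gave it exactly 1 symbol and that symbol began with COL, LAMA, LAMB, LAMC, MMP or TIMP followed by a digit, or with ADAM, LOX or SPARC. This gave 84 of the 23999 probe sets tested, for 45 of the 6765 genes with a single symbol, and each gene was represented by whichever of its probe sets had the highest mean.

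All sows were studied on Day 14 after insemination, and they fell into 4 groups of 3 animals: pregnant Yorkshire, pregnant Landrace, non-pregnant Yorkshire and non-pregnant Landrace. The 6 non-pregnant sows had received inactivated semen. Endometrium without the muscle layer was taken from several positions along both flushed uterine horns, and whether these were pooled for the array is not given in the sources used here. Even-numbered sows were pregnant and odd-numbered sows were not, and sows 5 to 10 were Landrace. The age of the sows was not given in the sources used here.

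Collagens assemble into the fibrils and networks that carry tensile load, and laminins polymerise with type IV collagen into the basement membranes under epithelium and around blood vessels. Lysyl oxidases cross-link collagen, SPARC proteins bind it, MMPs and ADAMTSs cleave it or its partner molecules, TIMPs block the MMPs, and most ADAMs release the outer part of membrane proteins. In the pig the conceptus attaches to the uterine epithelium without invading it, while the stroma beneath is remodelled and its blood vessels become leakier and more numerous.

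Expression is given as log2 values, and a member was called when limma's moderated test gave an adjusted p under 0.05 (Benjamini-Hochberg over all 23999 probe sets). Probe sets above the median of all values on fewer than 3 arrays are called near background, or dim. That is a rule on level, no detection limit was measured, and some such members lay above the lower quartile of every array. The arrays were alike in scale, with medians between 6.25 and 6.30 and lower quartiles between 4.58 and 4.71, and each array correlated with its nearest at r of 0.975 to 0.992 across probe sets. Non-pregnant Landrace sow 7 had the lowest correlation with its nearest array. For 2 pregnant sows the nearest array was that of a non-pregnant sow of the same breed. These were Yorkshire sow 12, nearest to sow 11 (r = 0.992), and Landrace sow 8, nearest to sow 5 (r = 0.983). Sows 7 and 12, but not sow 8, were left out together in fits given below. The 10 measured epithelial markers had mean levels of 9.56 to 10.29 over the sows, and the 7 stromal fibroblast markers 9.48 to 10.28, so that markers of epithelium and stroma were present in each library. The 8 leukocyte markers averaged 6.75 in sow 7 and 5.19 to 5.58 in the other sows, and ITGAM and CD79B were below the lower quartile of all 12 arrays. The 9 trophoblast markers averaged 7.15 in pregnant sow 10, 5.82 in pregnant sow 6 and 5.16 to 5.57 in the others. RNA integrity, read as the log2 signal of the 3' GAPDH control minus that of the 5' control, gave 0.869 to 1.25 in Landrace and 1.31 to 1.63 in Yorkshire sows.

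Of the 45 members 6 rose with pregnancy and none fell. COL4A2, COL5A3, COL6A2, LAMB1, LAMC1 and MMP2 were higher in pregnant sows by 1.36 to 1.77 times. The 6 rises among 45 members compare with 4.58% of all genes called higher, and the 0 falls with 7.48% called lower. The median difference of the members was 0.16, and 37 of 45 lay above 0, against a median of -0.03 over all genes, of which 44.3% lay above 0. Without sows 7 and 12 the count was 8, the same 6 genes with ADAM9 and TIMP4, against 7.54% of all genes called higher. Sow 12 was the lowest pregnant Yorkshire sow for most of the 6, and non-pregnant sow 7 had the highest ADAM9 value. Leaving them out thus widens those differences by construction. TIMP4 lay near background, and over all sows its other probe set had a pregnancy difference of -0.06.

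For breed 9 members were called, all in 1 direction. They were lower in Landrace than in Yorkshire sows, the collagen chains COL1A2, COL5A1, COL5A3, COL6A2 and COL6A3 with MMP2, MMP14, TIMP3 and SPARC, and none was higher. Over all genes 3.24% were called lower and 2.03% higher in Landrace sows. The members' median breed difference was -0.09, with 14 of 45 above 0, against 0.00 over all genes. Without sows 7 and 12 the count was 4, COL1A2, COL5A3, MMP2 and TIMP3, against 2.05% of all genes called lower. MMP2, COL5A3 and COL6A2 were called in both comparisons, and 12 members in either. The shares of all genes called in both or in either were not worked out, so these counts have no background beside them.

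**Figure D1:**
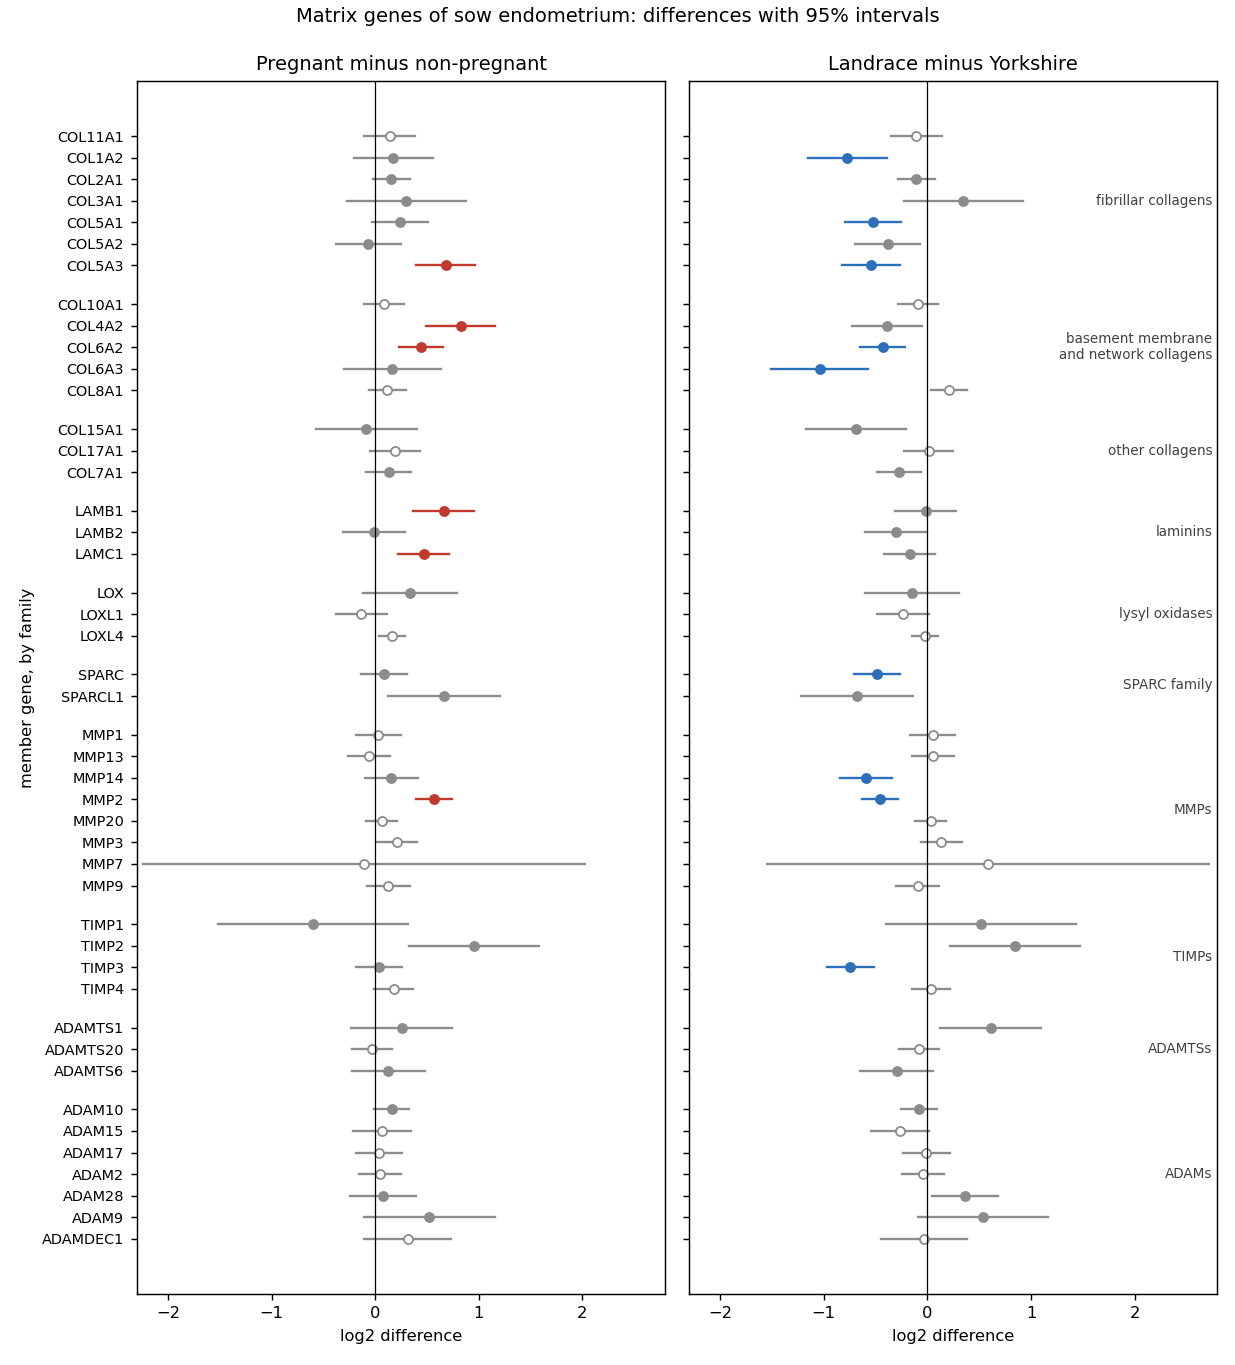
Log2 difference of each of the 45 member genes, grouped by family, for pregnant minus non-pregnant sows (left) and Landrace minus Yorkshire sows (right), with bars giving 95% intervals from limma over 12 arrays. Red points were called higher, blue points called lower and grey points not called. Open points belong to the 18 members above the median of all values on fewer than 3 arrays. The 6 red points on the left lie between 0.44 and 0.82, and the 9 blue points on the right between -1.04 and -0.43.

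The basement membrane and network collagens held 2 of the 6 pregnancy rises among their 5 members. COL4A2, a chain of the type IV collagen that forms the basement membrane sheet, lay between 9.56 and 10.47 in non-pregnant sows (median 9.77) and between 10.18 and 11.10 in pregnant sows (median 10.77). Only non-pregnant Yorkshire sow 11 reached into the pregnant range, where it lay above pregnant Landrace sows 8 and 10. Within each breed the groups did not overlap. The difference was 0.82 ± 0.15 (SE, n = 6 each; limma, adjusted p = 0.0110), or 1.77 times, with 0.94 in Yorkshire and 0.71 in Landrace sows.

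COL6A2, a chain of the type VI collagen that forms beaded microfibrils around stromal cells, ran from 8.10 to 8.70 in non-pregnant sows (median 8.51) and from 8.53 to 9.41 in pregnant sows (median 8.84). The pregnant Yorkshire sows were highest and the non-pregnant Landrace sows lowest, and the pregnant Landrace and non-pregnant Yorkshire sows covered nearly the same range between them. It rose by 0.44 ± 0.10 with pregnancy (limma, adjusted p = 0.0205) and was lower in Landrace sows by a difference of -0.43 ± 0.10 (adjusted p = 0.0263). The pregnancy call ended without non-pregnant sow 3 or pregnant sow 6 (adjusted p up to 0.0526) and without a breed term (adjusted p = 0.122). The breed call was lost when sow 5, 10 or 11 was left out (adjusted p up to 0.0644), without sows 7 and 12 together (adjusted p = 0.0741) and without a pregnancy term (adjusted p = 0.174).

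COL6A3, another chain of type VI collagen, showed the largest breed difference of the 45 members. Yorkshire sows ranged from 10.92 to 11.86 (median 11.46) and Landrace sows from 9.67 to 11.01 (median 10.48). Landrace sow 9 alone entered the Yorkshire range, just above Yorkshire sow 3. The difference of -1.04 ± 0.22 corresponds to 0.49 times the Yorkshire level (limma, adjusted p = 0.0170), and it was -0.85 without sows 7 and 12 (adjusted p = 0.0529). The pregnancy difference of COL6A3 was 0.17 ± 0.22 (adjusted p = 0.718), so the chains COL6A2 and COL6A3 were called together for breed and only COL6A2 for pregnancy, although the difference between the chains was not tested. COL8A1 and COL10A1, short network-forming chains, lay near background.

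Among the 7 fibrillar collagens COL5A3 was the 1 called for pregnancy. It encodes a chain of type V collagen, which starts and limits the growth of collagen fibrils. The non-pregnant sows lay between 7.57 and 8.20 (median 7.88) and the pregnant sows between 8.06 and 9.20 (median 8.34), with an overlap made by pregnant sow 10 and non-pregnant sows 3 and 11. The rise was 0.68 ± 0.13 (limma, adjusted p = 0.0121), and the breed difference was -0.54 ± 0.13 (adjusted p = 0.0330), with Yorkshire sows at 8.03 to 9.20 and Landrace sows at 7.57 to 8.36. The breed call was kept in 3 of the 12 fits with 1 sow left out: leaving out any sow but 8, 9 or 12 ended it (adjusted p up to 0.0783). It also ended without a pregnancy term (adjusted p = 0.247) and with cyclic loess (adjusted p = 0.0533). The pregnancy call ended without a breed term (adjusted p = 0.0692). The other 2 COL5A3 probe sets, both near background, had pregnancy differences of -0.02 and 0.12 and breed differences of -0.01 and -0.05.

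COL1A2 and COL5A1 were called for breed alone. COL1A2, a chain of the type I collagen of thick fibrils, lay between 9.18 and 9.98 in Yorkshire sows (median 9.40) and between 8.34 and 9.23 in Landrace sows (median 8.65). Landrace sow 6 was the only one to overlap. COL1A2 was lower by a difference of -0.77 ± 0.18 (limma, adjusted p = 0.0266), or 0.59 times, a call lost on leaving out sow 1, 4, 5, 10 or 11 (adjusted p up to 0.0631). A second COL1A2 probe set differed by -0.69 ± 0.43 and was not called (adjusted p = 0.423). COL5A1 lay between 10.06 and 10.79 in Yorkshire sows (median 10.44) and between 9.62 and 10.14 in Landrace sows (median 9.88). The overlap involved Yorkshire sow 1, the lowest of its breed, and Landrace sows 6, 8 and 9. The COL5A1 difference of -0.52 ± 0.12 (limma, adjusted p = 0.0308) lost its call on leaving out sow 4, 5, 7, 10, 11 or 12 (adjusted p up to 0.0710), without sows 7 and 12 together (adjusted p = 0.0872) and without a pregnancy term (adjusted p = 0.0611). None of the other COL5A1 probe sets was called for breed. They differed by -0.42 (adjusted p = 0.0602) and -0.25, and those near background by 0.15, -0.02 and 0.09.

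COL3A1, which mixes with type I collagen in soft tissue, was not called in either comparison. It lay between 7.27 and 8.57 in non-pregnant sows (median 7.70) and between 6.97 and 8.43 in pregnant sows (median 8.37), where pregnant sow 12 was the lowest of all 12 animals. Its pregnancy difference was 0.30 ± 0.26 (limma, adjusted p = 0.566), and its breed difference of 0.35 ± 0.26 (adjusted p = 0.518) had the opposite sign to those of COL1A2 and COL5A1. COL5A2, its neighbour on the chromosome with no protein-coding gene between them in the RefSeq annotation of Sscrofa11.1, had a breed difference of -0.38 ± 0.14 (adjusted p = 0.148) and a pregnancy difference of -0.06 ± 0.14. COL2A1, best known from cartilage, differed by 0.16 with pregnancy (adjusted p = 0.281).

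The remaining collagens gave no call. COL15A1, a collagen of the zone beneath basement membranes, had a breed difference of -0.69 ± 0.22 (limma, adjusted p = 0.0981), with Yorkshire sows at 8.94 to 9.82 and Landrace sows at 7.99 to 9.42. Landrace sow 9 lay highest and Landrace sow 10 lowest of that breed, and without sow 9 the adjusted p was 0.0437. COL7A1, of the anchoring fibrils, differed by -0.27 ± 0.10 between the breeds (adjusted p = 0.138). COL17A1, a transmembrane collagen of hemidesmosomes, lay near background and differed by 0.19 ± 0.11 with pregnancy (adjusted p = 0.327).

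Both laminin chains that rose are parts of laminins found in basement membranes under epithelium as well as around blood vessels. LAMB1, the beta 1 chain, ranged from 8.88 to 9.22 in non-pregnant sows (median 9.01) and from 9.20 to 10.10 in pregnant sows (median 9.77). Pregnant sow 12 was the only pregnant animal below the highest non-pregnant one, sow 11. The rise was 0.66 ± 0.13 (limma, adjusted p = 0.0141), nearly the same in Yorkshire (0.69) and Landrace sows (0.63), and the breed difference was -0.02 ± 0.13 (adjusted p = 0.962). A second LAMB1 probe set rose by 0.60 ± 0.16 (adjusted p = 0.0402).

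LAMC1, the gamma 1 chain found in most laminins, lay between 9.19 and 9.64 in non-pregnant sows (median 9.30) and between 9.58 and 10.21 in pregnant sows (median 9.77). Non-pregnant sow 11 again overlapped with the lower pregnant sows, here 8, 10 and 12. The rise of 0.47 ± 0.11 (limma, adjusted p = 0.0278) lost its call on leaving out sow 2, 3, 4, 5, 6 or 9 (adjusted p up to 0.0667). All 3 other LAMC1 probe sets had the same sign, at 0.24, 0.21 and 0.52, and the last was called (adjusted p = 0.0411). LAMB2, the beta 2 chain, differed by -0.01 ± 0.14 with pregnancy (adjusted p = 0.987, 95% interval -0.31 to 0.29) and by -0.30 ± 0.14 between the breeds (adjusted p = 0.249).

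Of 11 measured endothelial markers 7 were called higher in pregnant sows, where 4.58% of all genes were, with a median difference of 0.54, and their mean level was 6.90 to 7.40 in pregnant and 6.32 to 6.81 in non-pregnant sows. PECAM1, CLDN5, FLT1 and ENG were not called (adjusted p = 0.0542 to 0.656). All 11 differences lay above 0, and none of the 11 was called for breed. Of 7 stromal fibroblast markers 4 rose and DPT fell, with mean levels of 9.69 to 10.28 in pregnant and 9.48 to 10.12 in non-pregnant sows, and of 6 smooth muscle and pericyte markers MYL9 rose, with 8.60 to 9.38 against 8.19 to 8.75. Of 10 epithelial markers MUC1 rose and KRT8 and CLDN7 fell. The 3' minus 5' GAPDH signal averaged 1.36 in pregnant and 1.20 in non-pregnant sows, and within Landrace it was 1.15 to 1.25 against 0.869 to 1.04, while in Yorkshire the groups overlapped. The same measure of actin averaged 1.17 in pregnant and 1.19 in non-pregnant sows, and the groups overlapped. The part of these markers and of RNA integrity in the rises of COL4A2, LAMB1, LAMC1, COL5A3, COL6A2 and MMP2 was not tested, and in whole tissue more cells of a type and more RNA per cell cannot be told apart. Trophoblast markers were highest in pregnant sow 10 and next highest in pregnant sow 6. Without sow 10 the same 6 members were called, and without sow 6 COL6A2 and LAMC1 lost their call. The part of trophoblast in the rises was not tested.

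**Figure D2:**
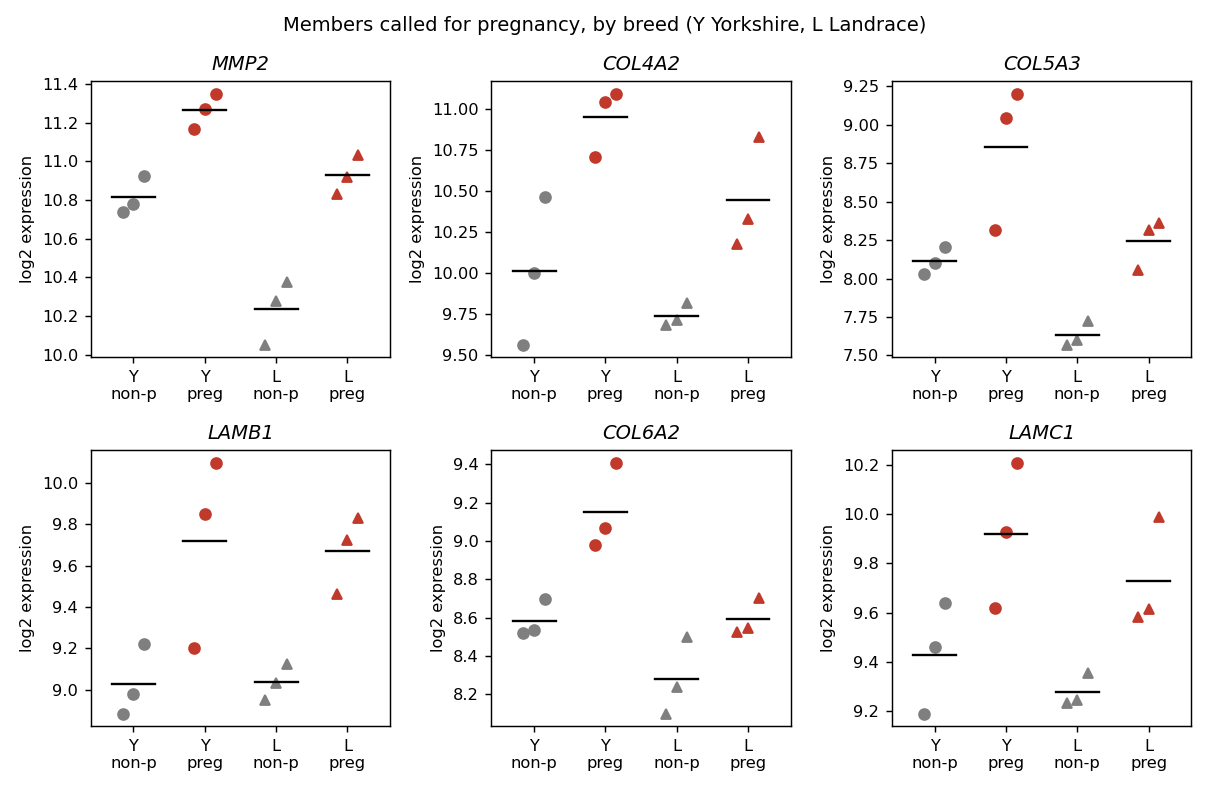
Log2 expression of the 6 members called for pregnancy in every sow. Circles are Yorkshire and triangles Landrace sows, grey is non-pregnant and red pregnant, black lines are means of 3 sows, and points within a group are set side by side in order of their value. Pregnant sows lie above non-pregnant sows of the same breed without overlap for MMP2, COL4A2, COL5A3 and COL6A2, and 1 pregnant Yorkshire sow falls among the non-pregnant range for LAMB1 and for LAMC1.

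None of the 6 rises separated all pregnant from all non-pregnant sows, which 1.54% of all genes did in that direction. Within both breeds taken separately, 4 members did (COL4A2, COL5A3, COL6A2 and MMP2), against 3.39% of all genes. Non-pregnant sow 11 had the highest non-pregnant value of each of the 6 genes. Pregnant sow 4 had the highest value of each of the 6 genes among all 12 sows, and pregnant sow 12 the lowest of the pregnant Yorkshire sows for 5 of them, COL6A2 excepted.

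The lysyl oxidases gave no call. LOX, which starts the cross-linking of collagen and elastin, lay between 6.32 and 7.62 in non-pregnant sows (median 7.09) and between 7.08 and 7.70 in pregnant sows (median 7.37). Non-pregnant sows 3, 5 and 7 lay below every pregnant sow, and the other 3 among them. The differences were 0.33 ± 0.21 for pregnancy (limma, adjusted p = 0.379) and -0.15 ± 0.21 for breed (adjusted p = 0.746). LOXL4 differed by 0.16 ± 0.06 with pregnancy (adjusted p = 0.107) on values of 5.60 to 5.88, and LOXL1 by -0.13 ± 0.11. Both lay near background.

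SPARC, a secreted glycoprotein that binds collagen and assists its deposition, separated the breeds completely. Yorkshire sows lay between 13.09 and 13.35 (median 13.25) and Landrace sows between 12.43 and 13.01 (median 12.80). The lowest value was that of pregnant Landrace sow 10. The difference was -0.48 ± 0.10 (limma, adjusted p = 0.0185), and it was -0.46 without sows 7 and 12 (adjusted p = 0.0581). A second SPARC probe set, of lower level, differed by -0.04 ± 0.12. SPARCL1, a relative expressed around blood vessels, had differences of 0.67 ± 0.25 for pregnancy (adjusted p = 0.123) and -0.68 ± 0.25 for breed (adjusted p = 0.142). Its values ran from 9.23 in non-pregnant sow 7 to 11.79 in pregnant sow 2, and sow 7 lay below all others.

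MMP2, the gelatinase that cleaves denatured and type IV collagen, had the smallest p of any member for pregnancy. It lay between 10.05 and 10.93 in non-pregnant sows (median 10.56) and between 10.83 and 11.35 in pregnant sows (median 11.10). The 4 groups were stepped, with non-pregnant Landrace sows at 10.05 to 10.38, non-pregnant Yorkshire sows at 10.74 to 10.93, pregnant Landrace sows at 10.83 to 11.03 and pregnant Yorkshire sows at 11.17 to 11.35. Only the 2 middle groups overlapped. MMP2 rose by 0.57 ± 0.08 with pregnancy (limma, adjusted p = 0.00464), or 1.49 times, and was lower in Landrace sows by a difference of -0.46 ± 0.08 (adjusted p = 0.00782), or 0.73 times. Both calls held in all 12 fits with 1 sow left out and without sows 7 and 12, and the breed call ended without a pregnancy term (adjusted p = 0.209).

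MMP14, a membrane-anchored protease that activates the MMP2 proenzyme, followed breed. Yorkshire sows lay between 7.97 and 8.50 (median 8.21) and Landrace sows between 7.31 and 8.03 (median 7.58). Landrace sow 9 was the single animal to enter the Yorkshire range, and the 3 pregnant Landrace sows lay within 7.57 to 7.71. The difference was -0.59 ± 0.12 (limma, adjusted p = 0.0135), called in each of the 12 fits without 1 sow, and -0.57 without sows 7 and 12 (adjusted p = 0.0517). With pregnancy MMP14 differed by 0.16 ± 0.12 (adjusted p = 0.484).

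The other 6 MMPs lay near background by the rule used here, although MMP7 was above the median of all values in sows 4 and 7. MMP9, the gelatinase of neutrophils and macrophages, was between 4.65 and 5.28 in all sows and differed by 0.13 ± 0.09 with pregnancy (limma, adjusted p = 0.474). The collagenases MMP1 and MMP13 and the enamel protease MMP20 were below the lower quartile of all 12 arrays, and the stromelysin MMP3 lay between 4.11 and 4.81. MMP7, MMP20, MMP1, MMP3 and MMP13 lie close together in the RefSeq annotation of Sscrofa11.1, with 0 to 2 protein-coding genes between neighbours, and none of the 5 was called.

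MMP7, a small protease of glandular epithelium, was high in single sows. Non-pregnant sow 7 had a value of 9.65 and the other non-pregnant sows 3.42 to 3.86, while pregnant sows ranged from 3.56 to 6.52 (median 4.43). Pregnant sows 4, 2, 6 and 8 lay above the non-pregnant sows other than sow 7, and pregnant sows 10 and 12 lay among them. The pregnancy difference was -0.11 ± 0.98 (limma, adjusted p = 0.968), and without sow 7 it was 0.93 (adjusted p = 0.214). Without sows 7 and 12 it was 1.23 (adjusted p = 0.0631). The leukocyte markers were also highest in sow 7, and their part in its MMP7 value was not tested.

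Among the TIMPs, TIMP3, which stays bound to the matrix and blocks ADAMs as well as MMPs, had the smallest p of any member for breed. Yorkshire sows lay between 7.02 and 7.34 (median 7.15) and Landrace sows between 6.18 and 6.77 (median 6.37). The breeds did not overlap, and pregnant and non-pregnant sows of 1 breed covered much the same range. The difference was -0.75 ± 0.10 (limma, adjusted p = 0.00242), or 0.60 times, and -0.67 without sows 7 and 12 (adjusted p = 0.0114). A second TIMP3 probe set differed by -0.45 ± 0.09 (adjusted p = 0.0146), and the lowest, near background, by 0.08 ± 0.11. The pregnancy difference was 0.04 ± 0.10 (adjusted p = 0.882, 95% interval -0.19 to 0.26).

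TIMP2, which inhibits MMPs and also takes part in the activation of the MMP2 proenzyme, had the largest pregnancy difference of any member but missed the threshold. The non-pregnant Yorkshire sows lay at 11.02, 11.75 and 11.79. The other 9 sows lay between 12.61 and 13.68, the pregnant Yorkshire sows from 12.74 to 13.44, the non-pregnant Landrace sows from 12.61 to 13.42 and the pregnant Landrace sows from 12.65 to 13.68. A single group of 3 was thus low, and the others overlapped. Over both breeds the pregnancy difference was 0.96 ± 0.29 (limma, adjusted p = 0.0634) and the breed difference 0.85 ± 0.29 (adjusted p = 0.116). The pregnancy difference was 1.61 in Yorkshire and 0.30 in Landrace sows, and the interaction of -1.31 ± 0.45 had an unadjusted p of 0.0146 that did not survive adjustment.

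The second TIMP2 probe set differed by 0.84 ± 0.19 with pregnancy and was called (limma, adjusted p = 0.0239), with a breed difference of 0.24 ± 0.19 (adjusted p = 0.544). The first probe set was called for pregnancy without non-pregnant sow 5 or pregnant sow 8 (lowest adjusted p = 0.0131), with array weights (adjusted p = 0.0337) and with dim probe sets left out (adjusted p = 0.0441).

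TIMP1, a soluble inhibitor induced in inflamed and growing tissue, was set apart by 1 animal. Non-pregnant sow 7 lay at 12.47 and the other non-pregnant sows at 9.40 to 9.92, while the pregnant sows lay at 9.22 to 9.89 (median 9.48). Outside sow 7 the groups overlapped almost fully. The difference of -0.60 ± 0.42 (limma, adjusted p = 0.450) was -0.18 without sows 7 and 12 (adjusted p = 0.457). The leukocyte markers were highest in that sow too, and their part was not tested. TIMP4 was below the lower quartile of all 12 arrays.

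**Figure D3:**
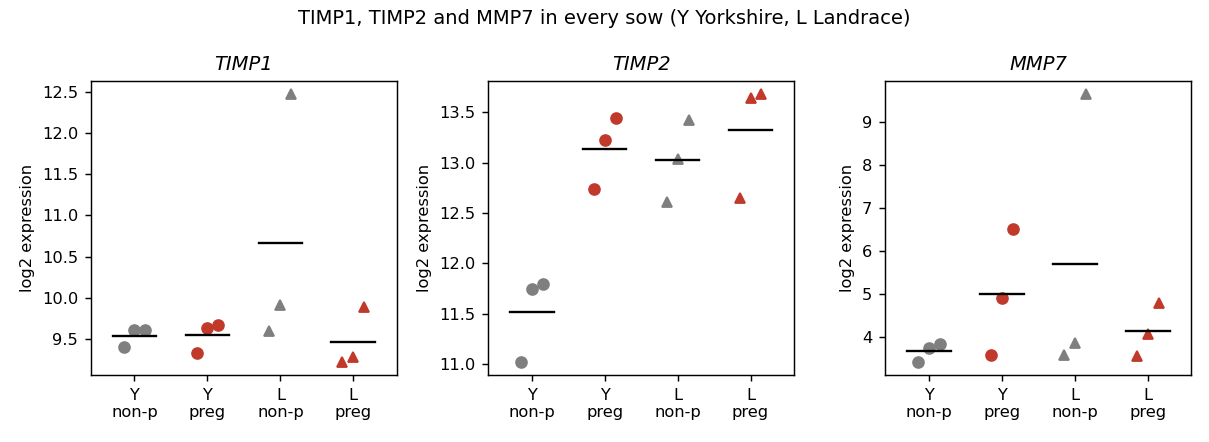
Log2 expression of TIMP1, TIMP2 and MMP7 in every sow, with circles for Yorkshire, triangles for Landrace, grey for non-pregnant and red for pregnant sows, black lines for means of 3 sows, and points within a group in order of their value. A single non-pregnant Landrace sow, number 7, lies at 12.47 for TIMP1 and 9.65 for MMP7, and for TIMP2 the 3 non-pregnant Yorkshire sows lie below the other 9.

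The 3 ADAMTS proteases and 7 ADAMs gave no call. ADAMTS1, which cleaves the proteoglycans versican and aggrecan, lay between 10.49 and 12.10 in Yorkshire sows (median 11.34) and between 11.50 and 12.29 in Landrace sows (median 12.06). The non-pregnant Yorkshire sows were the lowest 3 of the 12. The breed difference was 0.61 ± 0.22 (limma, adjusted p = 0.144), made of 1.09 in non-pregnant and 0.13 in pregnant sows, and the pregnancy difference 0.26 ± 0.22 (adjusted p = 0.563). A second probe set gave breed and pregnancy differences of 0.56 and 0.24.

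ADAM9, a membrane protease with shedding activity, lay between 6.05 and 8.51 in non-pregnant sows (median 6.99) and between 7.04 and 7.97 in pregnant sows (median 7.72). Sow 7 held the highest value of all 12 animals, above every pregnant sow. The difference of 0.52 ± 0.29 (limma, adjusted p = 0.313) was 0.77 without that sow (adjusted p = 0.0450). ADAM10 and ADAM17, the principal sheddases of cell-surface receptors and cytokines, differed by 0.16 ± 0.08 (adjusted p = 0.249) and 0.04 ± 0.10 (adjusted p = 0.877) with pregnancy. ADAM28, beside ADAMDEC1 in the RefSeq annotation, was at 6.74 to 7.15 in non-pregnant Yorkshire and 7.49 to 7.75 in non-pregnant Landrace sows, with a breed difference over all sows of 0.36 ± 0.15 (adjusted p = 0.188). ADAM2, a sperm surface protein, and ADAMTS20 were below the lower quartile of all arrays.

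In all, 18 of the 45 members exceeded the median of all values on fewer than 3 arrays, and none of these was called with all 12 sows in the fit. The calls came from the other 27. Of the 18, ADAM2, ADAMTS20, MMP1, MMP13, MMP20 and TIMP4 were below the lower quartile on all 12 arrays, where a change cannot be seen until it lifts the signal above background. Of the 45 genes 22 had more than 1 probe set, giving 39 further probe sets, of which 28 were dim. All 11 that were not dim had the sign of the probe set used here, for pregnancy and for breed. The called genes had 6 further probe sets for pregnancy, 5 of the same sign and 2 called, and 11 for breed, 8 of the same sign and 1 called.

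Within single breeds few calls were made, with 3 sows a group. In Landrace sows MMP2 rose by 0.69 (limma, adjusted p = 0.0178), the only member called, against 0.813% of all genes called higher. In Yorkshire sows no member and no gene was called in the same fit. At an unadjusted p under 0.05 were 12 of the 45 members and 1469 of the 6765 genes, and TIMP2 had the smallest adjusted p of the members, at 0.0876. Sow 12 was the lowest pregnant Yorkshire sow for most members called for pregnancy, so its removal widens their difference by construction. Without it 7 members were called in Yorkshire sows (ADAM28, COL4A2, COL5A3, COL6A2, LAMB1, MMP2 and TIMP2), against 3.43% of all genes called higher. In Landrace sows 3 were called without it (COL5A3, LAMB1 and MMP2), against 1.61% of all genes. On leaving out sow 5, 6, 9 or 10, no member was called in Landrace sows.

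No member's pregnancy difference was called as differing between the breeds. The smallest adjusted p for the interaction was 0.9996 (limma), and no gene at all was called, with 4 members and 336 of all genes at an unadjusted p under 0.05. The 4 were TIMP2, COL8A1, ADAMTS1 and ADAM28. For TIMP2, ADAMTS1 and ADAM28 the non-pregnant Yorkshire sows had the lowest mean of the 4 groups, and for COL8A1, near background, the pregnant Landrace sows were highest, at 5.22 to 5.34 against 4.80 to 5.05 in all others. For the 6 members called for pregnancy the interaction lay between -0.26 (COL6A2) and 0.24 (MMP2).

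The breed differences of called members had the same sign in pregnant and non-pregnant sows. In non-pregnant sows TIMP3 was lower in Landrace by a difference of -0.86 and MMP2 by -0.58 (limma, adjusted p = 0.0208 and 0.0335), 2 members against 0.798% of all genes called lower. In pregnant sows no member was called, with COL6A3 at -1.07, MMP14 at -0.76 and TIMP3 at -0.63, the smallest adjusted p of any member being 0.0597 and 12 of 45 members, against 880 of 6765 genes, at an unadjusted p under 0.05. SPARC and TIMP3 separated all Yorkshire from all Landrace sows, as 1.71% of all genes did in that direction. Taking pregnant and non-pregnant sows separately, COL6A2, MMP2, SPARC and TIMP3 did so in both, against 3.73% of all genes.

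The 3' to 5' GAPDH difference did not overlap between the breeds, with means of 1.07 in Landrace and 1.49 in Yorkshire sows, while the same measure of actin overlapped, at 0.919 to 1.22 and 1.01 to 1.45. Its part in the breed differences was not tested, and the measure lies in the same 2 sets of 6 sows, so it cannot be told apart from breed here. None of the endothelial, stromal fibroblast, smooth muscle and leukocyte markers was called for breed, and of the epithelial markers CLDN3 was higher in Landrace sows. The stromal fibroblast markers averaged 9.48 to 10.16 in Landrace and 9.74 to 10.28 in Yorkshire sows, and 6 of the 7 had a breed difference below 0, with a median of -0.23. Their part in the breed differences was not tested.

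**Figure D4:**
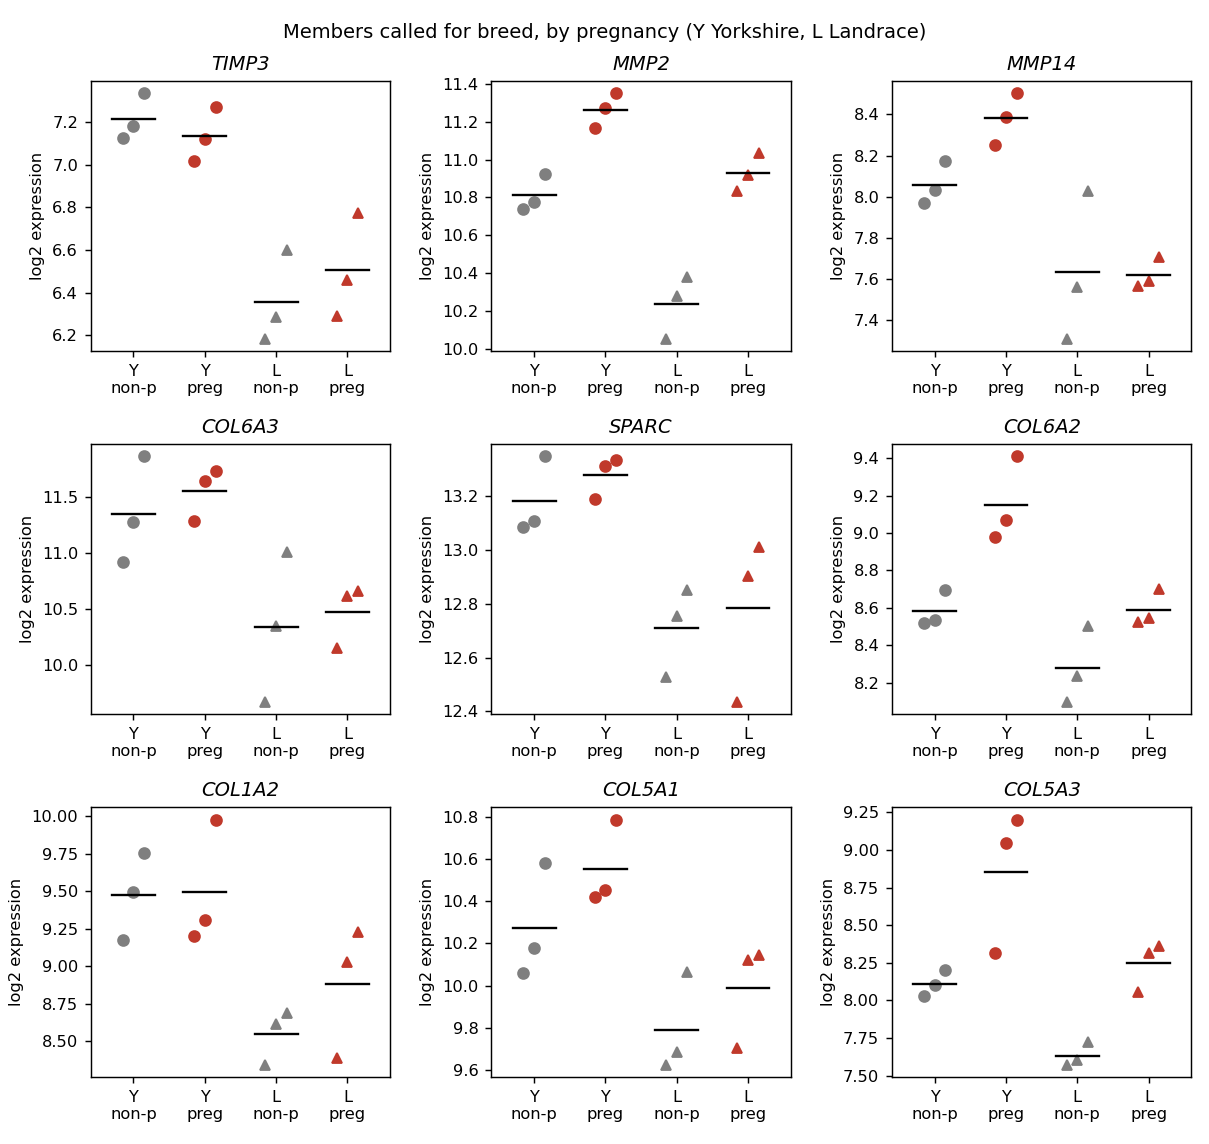
Log2 expression of the 9 members called for breed in every sow. Circles are Yorkshire and triangles Landrace sows, grey is non-pregnant and red pregnant, black lines are means of 3 sows, and points within a group are set side by side in order of their value. Landrace sows lie lower in each panel, without any overlap of the breeds for TIMP3 and SPARC, and the Landrace mean of COL6A3 is lower by 1.04.

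Some genes that process newly made collagen were lower in Landrace sows. Of 18 genes listed for collagen maturation and secretion 9 were measured, and 4 were called lower in Landrace, as 3.24% of all genes were: P4HA2, a proline hydroxylase, by a difference of -0.79 (limma, adjusted p = 0.00603), SERPINH1, the collagen chaperone, by -0.69 (adjusted p = 0.0111), PLOD1, a lysine hydroxylase, by -0.59 (adjusted p = 0.0108) and PLOD3, a related enzyme, by -0.27 (adjusted p = 0.0165). The median breed difference of the 9 was -0.31, and PCOLCE2 alone lay above 0. The mean level of the list was 7.97 to 8.34 in Landrace and 8.40 to 8.72 in Yorkshire sows. None of the 9 was called for pregnancy. The list was chosen with earlier results of these data known.

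Of 16 measured matrix glycoproteins and proteoglycans, FN1, the fibronectin that binds collagen and integrins, rose with pregnancy by 0.76 (limma, adjusted p = 0.0177), and the small proteoglycans BGN and DCN by 0.55 (adjusted p = 0.0262) and 0.31 (adjusted p = 0.0330). The median of the 16 was 0.26. DCN and LUM are also among the stromal fibroblast markers given above, as is FAP of the other proteases, so these lists share genes. TNXB, a tenascin that links collagen fibrils, was called for breed, lower in Landrace sows by a difference of -0.75 (adjusted p = 0.00364). Of 13 other matrix proteases and inhibitors, and of 4 receptors of collagen and laminin, none was called in either comparison, with median pregnancy differences of 0.12 and -0.06.

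**Figure D5:**
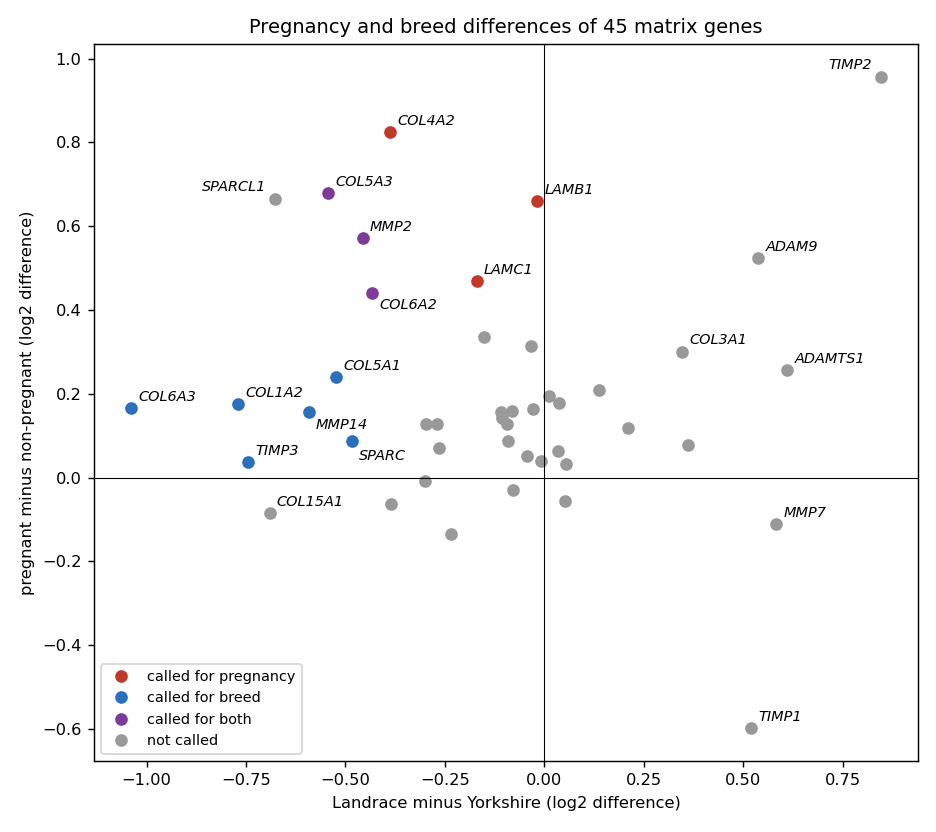
Log2 difference between pregnant and non-pregnant sows (vertical) against that between Landrace and Yorkshire sows (horizontal) for the 45 member genes, with colours for the comparison in which limma called them. MMP2, COL5A3 and COL6A2, called in both, lie at upper left, COL4A2, LAMB1 and LAMC1 were called for pregnancy alone, and TIMP2 at 0.96 and 0.85 was called in neither.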

How the data were processed

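RNA of 12 sow endometria was measured on Affymetrix porcine arrays, 1 per sow. The authors deposited 1 log2 expression value for each probe set and sow. The submitters' processing notes name RMA, affy and limma but no version. RMA makes array distributions alike, so that a difference is relative to the rest of the array, and background makes differences of dim genes too small. Precision is limited by the number of arrays. Of 24123 probe sets, 124 manufacturer controls were left out. Symbols came from the platform annotation: 10069 probe sets had 1 symbol, 198 several and 13732 none. The array's build is not given in the sources used here, so coordinates are left out.

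The test was limma's moderated test (version 3.58.1, under R 4.3.3), two-sided, with Benjamini-Hochberg adjustment over 23999 probe sets. Pregnancy and breed were additive terms over all 12 arrays, with 9 residual degrees of freedom. Contrasts within breeds or pregnancy groups and the interaction came from a fit of 4 groups, with 8. The procedure was also run on simulated data with independent normal noise and no outlying sow. These arrays differ from that, so its outcome is not used here as support. Background shares count genes over 6765 symbols, each by its highest-mean probe set.

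The members, the 4 pathway lists and the 6 marker lists were chosen with earlier results of these data known. Named with values by rule were called members, the largest differences, the smallest p of each family and of the interaction, and 25 fixed names, of which 19 were measured, 24 members in all. The other fixed names were not analysed here. Members outside that rule were named after their values were seen.

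The labels describe separate animals, and no replicate number occurs in both groups, so pairs were not modelled. No scan or extraction date was used here. Alternatives were cyclic loess, median centring, a filter on dim probe sets, a robust prior with an intensity trend, array weights, models without the other term, each sow left out, sows 7 and 12 left out, the second-highest probe set and an adjusted p under 0.01.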

Additional observations from a re-analysis of the deposited data

Results flagged for a closer look

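In each pregnancy group of 6 sows, the highest and the lowest sow of every member were checked for a gap to the others that is wide for the group's range. This was so in 6 of 90 groups, and chance marks about 1 in 20. Non-pregnant sow 7 lay far above the other non-pregnant sows for MMP7 (9.65, next 3.86) and TIMP1 (12.47, next 9.92). Pregnant sow 12 lay far below the other pregnant sows for COL3A1 (6.97, next 7.94) and MMP1 (2.90, next 3.14), and far above them for ADAM15 (6.80, next 6.26). Non-pregnant sow 1 lay far above its group for COL11A1 (5.47, next 5.20). MMP7, MMP1, ADAM15 and COL11A1 were near background in most sows. Sows 7 and 12 are those left out together in the fits above.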

How the results depend on the processing

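No paired analysis was possible because the pregnant and non-pregnant sows share no replicate numbers. The pregnancy rises numbered 6 among the members, and 4 to 7 when 1 sow was left out, 8 without sows 7 and 12, 4 without a breed term and 1 (MMP2) at an adjusted p under 0.01. The members lower in Landrace sows numbered 9. They were 5 without a pregnancy term, 4 without sows 7 and 12, 5 with the second-highest probe set, 2 (MMP2 and TIMP3) at an adjusted p under 0.01 and 5 to 10 when 1 sow was left out, the 5 arising on leaving out non-pregnant sow 5 or 11, or pregnant sow 10. The members higher in Landrace numbered 0, and 0 to 1 when 1 sow was left out (TIMP2 without pregnant sow 8).

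Within Yorkshire sows 0 members were called for pregnancy, but 11 with array weights, 10 without sows 7 and 12 and 0 to 7 when 1 sow was left out (7 without pregnant sow 12, 1 without pregnant sow 8). Within Landrace sows the 1 call became 3 with array weights, 3 without sows 7 and 12, 0 at an adjusted p under 0.01 and 0 to 3 when 1 sow was left out. For breed within non-pregnant sows, 0 higher became 1 with dim probe sets left out, 2 with array weights and 0 to 2 when 1 sow was left out, and 2 lower became 0 without sows 7 and 12, 1 with the second-highest probe set, 0 at an adjusted p under 0.01 and 0 to 2 when 1 sow was left out. For breed within pregnant sows, 0 higher became 1 with array weights, and 0 lower became 1 with dim probe sets left out, 5 with array weights, 1 without sows 7 and 12 and 0 to 1 when 1 sow was left out. The cause of these shifts was not tested. The share of all genes called also moved between settings and is not given here for each of them. The counts of called members above thus do not show by themselves how the members stand against all genes.

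Of the comparisons of named members with their reported value, 838 kept their direction and side of the threshold, 48 lost a call, 6 gained one and 38 turned sign. The sign turned for COL5A3 pregnancy (-0.017) and for LOXL4 (0.082), SPARCL1 (0.049) and ADAM17 (0.28) breed differences with the second-highest probe set. The ADAM17 breed difference also turned with cyclic loess (0.0078) and median centring (0.0040). Without sows 7 and 12 it turned for COL6A3 pregnancy (-0.023), TIMP3 pregnancy (-0.040), COL17A1 breed (-0.069), MMP7 pregnancy (1.23) and MMP7 breed (-0.76), and with array weights for COL17A1 breed (-0.063), MMP7 pregnancy (0.52) and MMP7 breed (-0.049). With 1 sow left out, the difference ran from -0.0062 to 0.12 for ADAM17 pregnancy, -0.092 to 0.035 for ADAM17 breed, -0.078 to 0.064 for COL17A1 breed, -0.13 to 0.069 for LAMB1 breed, -0.61 to 0.93 for MMP7 pregnancy, -0.45 to 1.08 for MMP7 breed and -0.035 to 0.079 for TIMP3 pregnancy. Of these, the reported value of COL5A3 for pregnancy alone was called. Signal over background limits the 18 dim members.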
